A study of Mus musculus with 2 samples.

Results

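Strong H4K16ac peaks that lay away from the ends of genes were examined in mouse bone marrow-derived macrophages. They were chosen from 2 deposited peak lists by their q-value and their place: a −log10 q of at least 10, and no end of a RefSeq protein-coding gene within 1 kb. The KAT8-cKO list gave 588 such peaks of 55149 and the WT list 649 of 58229, which overlap into 791 regions out of 113378 peaks in all. These are 1.31% of the KAT8-cKO peaks and 1.37% of the WT peaks that have no gene end within 1 kb, a share that the rule itself sets. The −log10 q of each list was used to choose the members, so their q, fold and pileup are given below as a description, without a test.

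The KAT8-cKO cells lacked the acetyltransferase KAT8 (cKO is read here as a conditional knockout, and the labels name no Cre driver), and the WT cells were wild type. Both were primary macrophages grown from bone marrow in 20 ng/ml of M-CSF, the factor that drives macrophage growth. Both were treated for 2 h with 100 ng/ml of R848, a synthetic ligand of the RNA sensor TLR7. CUT&Tag was used, in which an antibody brings a transposase to the marked chromatin so that nearby DNA is cut and tagged for sequencing. Each genotype had 1 library and 1 peak list, so no difference below could be set against variation between animals. No spike-in and no untreated cells were analysed here.

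KAT8, also called MOF, places acetyl groups on lysine 16 of histone H4 as the catalytic subunit of the MSL and NSL complexes. The NSL complex acts mainly at the promoters of widely expressed genes. H4K16ac loosens the packing of neighbouring nucleosomes and, besides promoters, is found at a subset of enhancers. In sequencing assays, satellite DNA, ribosomal DNA, recent duplications and the sequence beside telomeres commonly collect reads from many genomic copies into a few assembled positions.

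The labelled cell type could be checked only through the chromatin at marker genes. Of 63 macrophage identity genes, 27 had a KAT8-cKO peak and 34 a WT peak of any strength within 1 kb of an end, against 43.5% and 47.1% of all 21779 protein-coding genes. The KAT8-cKO list marked 3 of 14 T cell, 3 of 12 B cell, 2 of 14 neutrophil, 3 of 12 erythroid and megakaryocyte, and 1 of 12 fibroblast genes, and the WT list marked 4, 4, 3, 3 and 3 of them. Macrophage genes were thus marked at about the share of all genes or somewhat more, and the other lineages' genes were marked at lower shares than all genes in both lists.

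Library depth was not given in the sources used, and reads were recovered from the peak lists. The fold of a peak and its p-value fix a whole number of reads at its summit, the summit pileup, and the local background that the caller set against it. This pair returned the deposited −log10 p of 100% of peaks in both lists to within 0.01% of its value. The lowest local background in a list, called the floor here, was 3.68 reads in KAT8-cKO and 3.09 reads in WT, a ratio of 1.19 or 0.25 on the log2 scale. Ratios of summit pileups are given below relative to these floors unless stated. Unscaled ratios are higher by 0.25 on the log2 scale, and the median unscaled ratio over all shared peaks was 0. Where this shift turns the sign of a class or of all members, both values are given.

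Sequence was read only where a RefSeq window of GRCm38.p6 (the assembly behind mm10), 250 bases before to 50 bases after an annotated start, overlapped a member: 43 protein-coding and 15 noncoding windows. The sequence, repeat content and mappability of the other members, among them the distal ends and the centromere side, were not analysed here. The first 4 are the starts inside protein-coding genes with the highest WT −log10 q among the members, and Nudt9 is the start whose KAT8-cKO pileup was lowest against WT. Every CG dinucleotide is in capitals. Add3 encodes a subunit of the membrane skeleton protein adducin, Stag1 a cohesin subunit, Aph1b a subunit of gamma-secretase and Nudt9 an ADP-ribose pyrophosphatase.
Add3, chr19:53142506-53142805, plus strand: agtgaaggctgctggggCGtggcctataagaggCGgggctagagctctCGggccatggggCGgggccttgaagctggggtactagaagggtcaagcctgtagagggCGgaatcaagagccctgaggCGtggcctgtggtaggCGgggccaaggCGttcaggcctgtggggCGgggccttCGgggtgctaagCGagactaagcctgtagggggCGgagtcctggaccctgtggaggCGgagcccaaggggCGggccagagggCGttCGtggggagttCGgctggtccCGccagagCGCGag
Gm33989, chr7:39552579-39552878, plus strand: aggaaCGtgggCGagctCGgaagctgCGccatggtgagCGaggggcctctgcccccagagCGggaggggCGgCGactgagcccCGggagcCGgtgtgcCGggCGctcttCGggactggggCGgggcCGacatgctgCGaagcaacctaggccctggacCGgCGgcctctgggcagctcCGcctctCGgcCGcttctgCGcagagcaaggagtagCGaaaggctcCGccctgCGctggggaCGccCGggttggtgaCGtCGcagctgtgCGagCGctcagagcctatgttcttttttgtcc
Stag1, chr9:100643198-100643497, plus strand: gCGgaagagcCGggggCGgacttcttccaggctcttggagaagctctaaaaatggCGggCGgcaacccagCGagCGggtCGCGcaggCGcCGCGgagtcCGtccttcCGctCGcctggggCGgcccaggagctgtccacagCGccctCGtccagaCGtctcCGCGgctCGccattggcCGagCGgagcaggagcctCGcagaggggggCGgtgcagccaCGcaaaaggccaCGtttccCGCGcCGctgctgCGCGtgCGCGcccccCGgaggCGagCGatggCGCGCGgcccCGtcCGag
Aph1b, chr9:66795374-66795673, minus strand: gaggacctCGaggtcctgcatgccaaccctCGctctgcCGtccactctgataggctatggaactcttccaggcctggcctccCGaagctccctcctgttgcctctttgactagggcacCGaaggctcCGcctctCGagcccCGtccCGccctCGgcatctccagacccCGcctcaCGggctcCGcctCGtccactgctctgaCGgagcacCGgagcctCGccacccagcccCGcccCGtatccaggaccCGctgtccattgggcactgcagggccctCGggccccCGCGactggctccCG
Nudt9, chr5:104046614-104046913, plus strand: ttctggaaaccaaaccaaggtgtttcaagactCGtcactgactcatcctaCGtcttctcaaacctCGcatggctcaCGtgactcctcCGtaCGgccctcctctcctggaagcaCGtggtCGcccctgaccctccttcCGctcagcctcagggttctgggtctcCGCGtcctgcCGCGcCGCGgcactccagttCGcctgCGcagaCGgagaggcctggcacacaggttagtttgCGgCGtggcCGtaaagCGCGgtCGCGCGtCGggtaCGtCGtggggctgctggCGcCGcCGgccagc

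These 5 windows hold 20, 31, 43, 24 and 32 CG dinucleotides in the order printed, where the median protein-coding window of RefSeq holds 13. A window of another kind is that of the noncoding gene Gm40237, the strongest member at an annotated noncoding start. Capitals and lower case alternate here with each repeat of 44 bases.
Gm40237, chr4:118547156-118547455, plus strand: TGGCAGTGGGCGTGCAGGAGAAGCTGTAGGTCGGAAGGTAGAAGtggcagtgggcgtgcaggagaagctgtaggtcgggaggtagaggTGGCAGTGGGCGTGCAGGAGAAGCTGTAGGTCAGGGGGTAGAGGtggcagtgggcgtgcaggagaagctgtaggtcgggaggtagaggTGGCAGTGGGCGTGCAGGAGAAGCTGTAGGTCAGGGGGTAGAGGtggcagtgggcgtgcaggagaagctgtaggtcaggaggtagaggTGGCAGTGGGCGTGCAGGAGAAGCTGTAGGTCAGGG

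The Gm40237 window was identical to itself shifted by 44 bases at 96.1% of positions and held 6 full repeat units. Among all 32851 RefSeq promoter windows, 18 (0.0548%) reached 80% identity under any shift of 10 to 100 bases. The member region, chr4:118547169-118548735, overlapped this window, but its summits lay 573 and 585 bases downstream of the start in KAT8-cKO and WT, so the repeat was read beside the summit and not at it. Its summit pileup was 956 reads in KAT8-cKO and 849 in WT.

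Some of the strong peaks stood at the ends of chromosomes, and most did not. For the description the 791 regions were divided, in this order, into 16 at the distal end of a chromosome, 88 on the centromere side, 43 at an annotated start inside a protein-coding gene, 77 at the end of a noncoding gene or pseudogene, 268 others in gene bodies and 299 others outside genes. These classes were set after the values were seen. The shares of all peaks that lie in these classes are not given here, so the counts describe the members only. Mouse chromosomes carry the centromere at the low-coordinate end, where the assembly leaves the first 3 Mb unread, and the plot of places along the chromosomes shows the regions stacked at both ends.

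**Figure D1:**
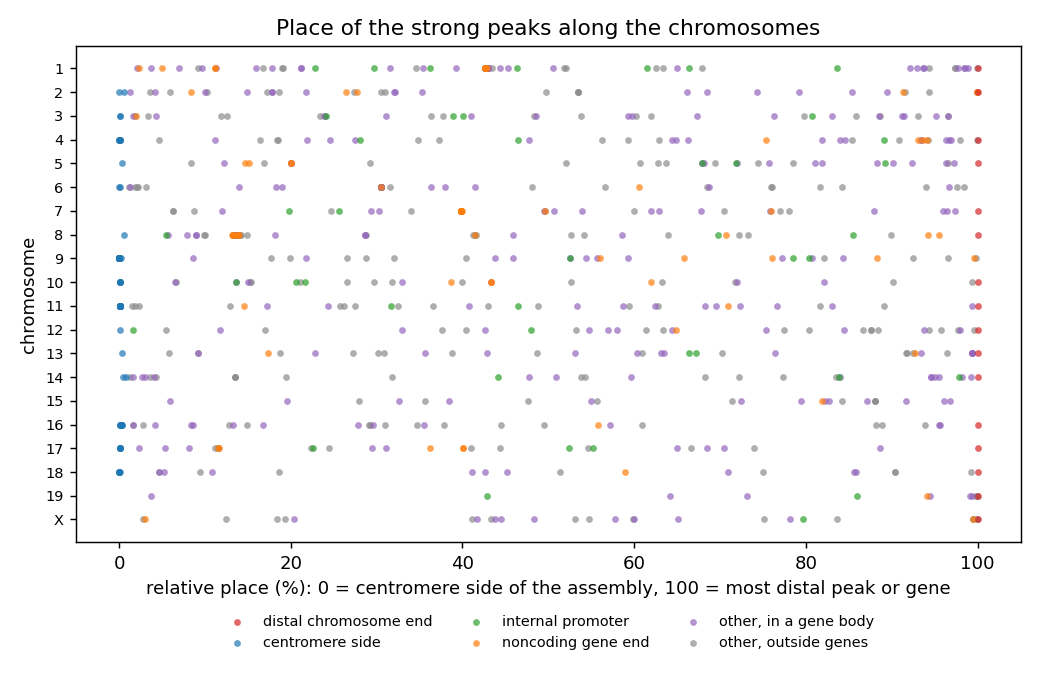
Place of the strong peak regions along the autosomes and chromosome X, on a scale where 0% is the position at 3 Mb and 100% the most distal peak or gene (chromosome Y is left out). Points are regions coloured by class; the 88 centromere-side regions sit at 0% on 15 chromosomes and the 16 distal-end regions at 100% on 16 chromosomes.

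Of all regions, 339 lay inside a protein-coding gene body (42.9%, 95% Wilson interval 39.5 to 46.3) and 452 outside genes (57.1%, 53.7 to 60.5). The intervals cover counting error over regions only. The median distance to the nearest gene end was 28.8 kb, with quartiles of 9.43 and 104 kb. In all, 673 regions were over 5 kb, 296 over 50 kb, 205 over 100 kb and 24 over 500 kb from any gene end. The farthest, chr1:102628096-102628420, lay 2137.5 kb from Cntnap5b, a neuronal adhesion gene, with 27 reads in KAT8-cKO and 20 in WT.

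Chromosome 1 held 81 regions, chromosome 9 held 58 and chromosome 8 held 55. On chromosome X, 3.25% of KAT8-cKO and 2.59% of WT peaks were members, and on chromosome Y 8.09% and 5.17%, against 1.07% and 1.11% of the whole lists. The 12 regions on chromosome Y included 6 between positions 140530 and 263688, with 59 to 171 reads in KAT8-cKO and 44 to 131 in WT.

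Members were wider than the weaker peaks away from gene ends and narrower than strong peaks at gene ends. The median width was 523.5 bp in KAT8-cKO and 589 bp in WT. It was 271 and 277 bp over the other peaks away from gene ends, and 792 and 808.5 bp over strong peaks at gene ends. The widest member peak measured 3996 bp in KAT8-cKO and 4120 bp in WT, and belonged to the ribosomal RNA locus described below.

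Nearly every member had a partner in the other list, as had the strong peaks at gene ends. Of the KAT8-cKO members 99.5% (98.5 to 99.8) were overlapped by a WT peak and of the WT members 99.2% (98.2 to 99.7) by a KAT8-cKO peak, against 35.6% and 33.2% of all peaks. Among strong gene-end peaks 155 of 155 in KAT8-cKO and 534 of 538 in WT had a partner, so a partner was not particular to the members. Strong q in both lists was less general: 75.7% of KAT8-cKO members (72.1 to 79.0) met a WT peak that also reached 10, and 68.3% of WT members (64.6 to 71.7) a KAT8-cKO peak that did. Over all peaks with a −log10 q of at least 10, gene ends included, these shares were 73.1% and 45.6%. By region, 442 reached 10 in both lists, 143 in KAT8-cKO alone and 206 in WT alone.

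Summits agreed closely. Over the 783 regions with peaks in both lists, the median gap between the KAT8-cKO and the WT summit was 26 bp, and 508 regions (64.9%) had summits within 50 bp. The log2 summit pileups of the libraries had a Pearson correlation of 0.961 over these regions and 0.705 over the 603 with fewer than 100 reads in both. The log2 folds had a Pearson correlation of 0.906. By rank, the Spearman correlation was 0.777 for fold and 0.694 for −log10 q. The points share both libraries and the threshold that chose them, so these are descriptions. Fold agreed within 10% in 244 regions (31.2%), and the median log2 ratio of KAT8-cKO to WT fold was −0.06.

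**Figure D2:**
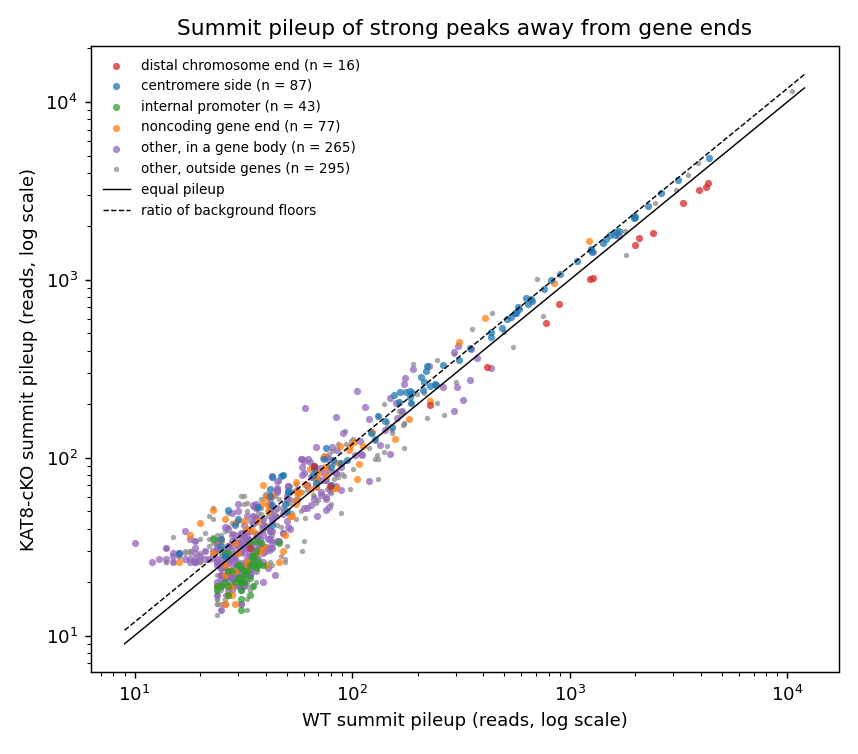
Summit pileup in reads in KAT8-cKO (vertical) and WT (horizontal), both on log axes, for the 783 regions with peaks in both lists, coloured by class. Of the distal-end regions 15 of 16 lie under the solid line of equal pileup, the centromere-side regions follow the dashed line set by the ratio of background floors, 1.19, and 40 of 43 internal promoters lie under both lines at low pileup.

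Relative to the floors, 186 of 783 members had a KAT8-cKO pileup at least 1.5-fold lower than WT and 38 at least 1.5-fold higher. Over all 19336 WT peaks with a KAT8-cKO partner, which are taken from the WT list, the shares were 16.4% lower and 1.49% higher. Those with a partner are 33.2% of WT peaks, so peaks without a KAT8-cKO call are left out of these shares, here and below. The members that WT chose had 28.9% lower and 1.4% higher. Of them 99.2% had a partner, so the 2 groups differ in this. The members that KAT8-cKO chose had 7.56% and 6.53%. The value depends on which list chose a region. Members chosen by KAT8-cKO had a median log2 ratio of −0.04, and +0.21 without scaling, and those chosen by WT had −0.31, and −0.05 without scaling. The median over all members was −0.17, and +0.08 without scaling.

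Fold and pileup are tied, since fold is the pileup over the local background with 1 read added to each. The highest folds belonged to peaks of very different size: members with a fold of at least 30, 20 in KAT8-cKO and 28 in WT, had pileups of 183 to 4550 reads in KAT8-cKO and 128 to 3925 in WT. The highest fold in both lists was at chr6:103649014-103649377 inside Chl1, a neural adhesion gene, with 45.6 in KAT8-cKO and 46.5 in WT. Pileups were compared instead of folds below, because a fold moves with its background as well as with its summit.

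At the other extreme, 55 KAT8-cKO members (9.35%, 7.26 to 11.98) and 40 WT members (6.16%, 4.56 to 8.28) had a fold under 3. At such a fold the threshold on q can be passed only with many reads over a high background, so their median pileup of 230 in KAT8-cKO and 219.5 in WT, over a median background of 111 and 109 reads, is set by the rule. The lowest folds, 1.63 in KAT8-cKO and 1.62 in WT, were on the centromere side of chromosome 9.

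**Figure D3:**
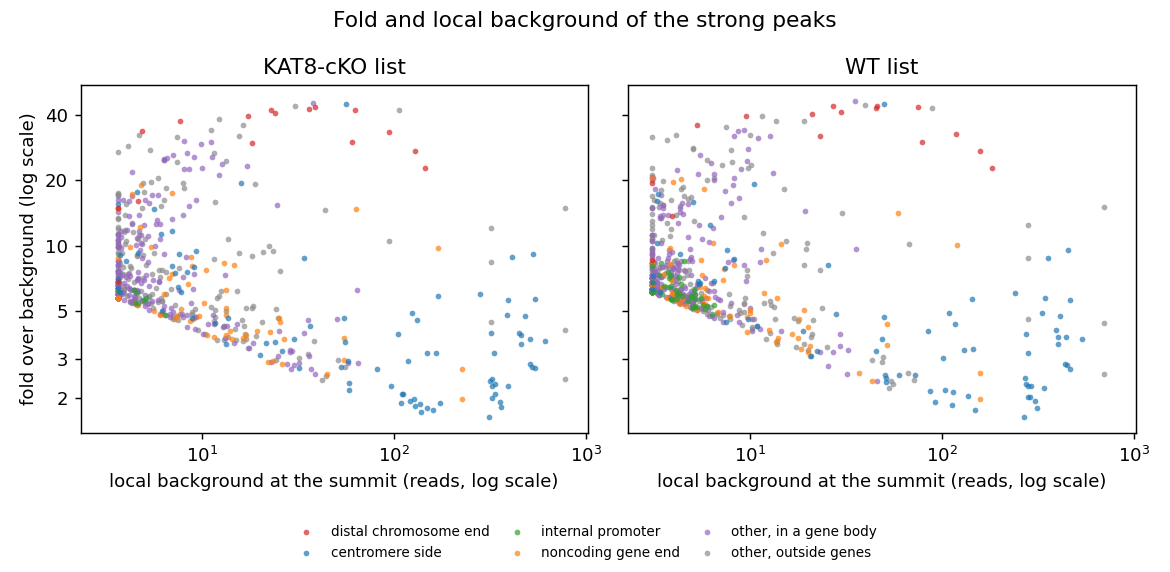
Fold over background against local background in reads, both on log axes, for members of the KAT8-cKO list (left) and the WT list (right), coloured by class. Many centromere-side regions lie in the corner of high background and low fold. Distal-end regions run along the top up to a fold of about 40, and the sharp lower edge is the threshold on q.

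Distal chromosome ends held a member on 16 of 21 chromosomes, and there the pileup was mostly lower in KAT8-cKO by a similar ratio. The 16 regions stood on 16 chromosomes, each within 1 kb of the most distal peak or gene, and in 15 of them the region was itself the outermost feature. All 16 were chosen in both lists, with 31 to 3525 reads in KAT8-cKO (median 1016) and 34 to 4317 in WT (median 1259). The median summit gap was 6 bp. The KAT8-cKO pileup was lower than WT in 15 of 16. The median log2 ratio was −0.55, with quartiles of −0.59 and −0.50 and a range of −0.70 to 0.17, and the median was −0.30 without scaling. The local background moved here too, with a median of 23.5 reads in KAT8-cKO and 28.7 in WT, and its part was not tested. Fold differed little, with a median of 33.5 in KAT8-cKO and 34.4 in WT and a median log2 fold ratio of −0.03.

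The strongest of them was chr7:145340886-145341474, 16827 bp from Mrgprd, a sensory neuron receptor, with 3525 reads in KAT8-cKO and 4317 in WT. The end of chromosome 18, chr18:90602124-90602664, had 3190 reads in KAT8-cKO and 3925 in WT. The end of chromosome 14, chr14:124801518-124802255, had 3338 in KAT8-cKO and 4212 in WT. The end of chromosome 12 gave 2710 and 3305 reads at chr12:120028617-120029091, and that of chromosome 2 gave 1841 and 2422 at chr2:182012682-182013265. KAT8-cKO was below WT at each of these 5. The exception among the 16 was chromosome 4, chr4:156356706-156357548, with 90 reads in KAT8-cKO and 67 in WT.

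Before scaling the median pileup ratio of KAT8-cKO to WT at these ends was 0.813. Relative to the floors, 5 of the 16 (31.3%) were at least 1.5-fold lower in KAT8-cKO and 0 at least 1.5-fold higher, against 28.9% and 1.4% of all WT-chosen members and 16.4% and 1.49% of all shared WT peaks.

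The centromere side held 88 regions within 1 Mb of the first assembled position, on 15 chromosomes. Chromosome 9 had 29 of them, chromosome 11 had 17, chromosome 16 had 8 and chromosome 4 had 7. Their median pileup was 240 reads in KAT8-cKO and 210 in WT, over a median background of 109 and 86.7 reads. The median fold was 3.70 in KAT8-cKO and 3.71 in WT. Single folds varied widely, from 1.63 to 45.1 in KAT8-cKO and from 1.62 to 44.9 in WT. The median summit gap was 5 bp.

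Relative to the floors the centromere side differed little between the libraries, with a median log2 ratio of −0.02 and quartiles of −0.08 and 0.12. None of the 87 regions with both peaks was 1.5-fold lower and 3 were 1.5-fold higher. The direction rests on the scaling: the median was +0.23 without it. Scaled medians by chromosome were all near 0. The 28 clustered regions of chromosome 9 had a scaled median of −0.04, the 17 of chromosome 11 had 0.04 and the 42 regions on other chromosomes had 0.08. Without scaling, the chromosome 9 cluster had 0.22 and the chromosome 11 regions had 0.29, so their difference in sign also rests on the scaling.

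On chromosome 9, 28 regions filled chr9:3000171-3038289, with pileups of 509 to 4869 reads in KAT8-cKO and 436 to 4357 in WT. The highest, chr9:3024048-3024661, stood on a background of 531 reads in KAT8-cKO and 456 in WT. The last of the 28, chr9:3037751-3038289, ended beside the microRNA gene Mir101c and had 995 reads in KAT8-cKO and 823 in WT. Its mature sequence is shown, seed (bases 2 to 8) in capitals, as the only microRNA annotated beside the centromere-side regions.
mmu-miR-101c, chr9:3038680-3038698, minus strand: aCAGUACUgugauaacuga

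On chromosome 11, 17 regions lay in chr11:3099996-3197139 in and around Sfi1, a centrin-binding protein gene with many partial copies in the mouse genome. They had 28 to 412 reads in KAT8-cKO and 26 to 347 in WT. On chromosome 12 a single narrow region, chr12:3109772-3110174, had 2598 reads in KAT8-cKO and 2294 in WT and a fold of 45.1 and 44.9, the one centromere-side member with a fold of at least 30.

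The region with the highest q of both lists was at neither end of its chromosome. It was chr2:98666250-98667335, 1034578 bp from the nearest gene end, that of Lrrc4c, a synaptic adhesion gene, and it had 11566 reads in KAT8-cKO and 10520 in WT over backgrounds of 775 and 698 reads. This place is widely known as one of excess signal in mouse sequencing assays. Pileups were also high at chr9:35305201-35305685, with 4550 reads in KAT8-cKO and 3892 in WT, and chr14:19416878-19418313, with 3862 in KAT8-cKO and 3513 in WT. The chr9 region differed from the chr2 region in fold and background. Its fold was 42.4 in KAT8-cKO and 43.1 in WT, over backgrounds of 106 and 89.3 reads. The fold of the chr2 region was 14.9 in KAT8-cKO and 15.1 in WT. Backgrounds of the chr14 region were 320 reads in KAT8-cKO and 280 in WT. Scaled log2 ratios of the chr2, chr9 and chr14 regions were −0.12, −0.03 and −0.12, and unscaled 0.14, 0.23 and 0.14. At the distal chromosome ends, by contrast, KAT8-cKO was below WT on both scales in 15 of 16.

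Members at noncoding genes included several families of repeated genes. The 77 regions had a median pileup of 54 reads in KAT8-cKO and 43 in WT. The median log2 ratio was −0.11, and +0.14 without scaling. The ribosomal RNA locus Rn18s-rs5 held 2 regions, chr17:39843057-39847193 with 613 reads in KAT8-cKO and 409 in WT, and chr17:39847528-39848758 with 446 and 311. The KAT8-cKO pileup was higher on both scales there, by 0.33 and 0.27 on the log2 scale relative to the floors. The local background moved with it, with a median of 227 reads in KAT8-cKO and 158 in WT, and its part was not tested. Folds were 1.96 to 2.69 in KAT8-cKO and 1.97 to 2.58 in WT.

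A run of 13 regions in chr7:59728754-59859900 followed the small nucleolar RNA genes within the noncoding host gene Snhg14, whose nearest protein-coding neighbour here is the imprinted gene Snrpn. All 13 lay within 1 kb of a small nucleolar RNA gene. They had 37 to 122 reads in KAT8-cKO and 32 to 102 in WT, with a scaled median of 0.03.

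On chromosome 1, the pseudogenes Gm10222 and Gm10925, nuclear copies of mitochondrial DNA, held a peak of 2881 bp, chr1:24613248-24616128, with 209 reads in KAT8-cKO and 229 in WT. Its neighbour, chr1:24611658-24612645, had 166 and 183 reads, and both were lower in KAT8-cKO on both scales. A 5S ribosomal RNA gene stood beside chr8:123600583-123601502, with 47 reads in KAT8-cKO and 52 in WT, and the transfer RNA gene n-TVaac5 beside chr13:23414132-23414671, with 15 reads in KAT8-cKO and 26 in WT.

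Some members lay close together: 166 regions (21.0%, 18.3 to 24.0) had another within 10 kb, among them 72 of the 88 centromere-side regions and 0 of the 16 distal ends and 0 of the 43 internal promoters. The same share over all peaks is not given here. Within 100 kb, 250 regions fell into 54 clusters. At chr1:84962514-85340438, 19 regions had a median of 71 reads in KAT8-cKO and 60 in WT.

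Next to it, 11 regions in chr1:85460265-85651693 ran through Sp110, Sp140 and Sp100, genes of interferon-inducible nuclear body proteins whose family has many near-identical copies in mouse. Their median was 61 reads in KAT8-cKO and 43 in WT, and 9 of 11 were higher in KAT8-cKO relative to the floors, with a scaled median of 0.33. Of the 11, 7 had been chosen by KAT8-cKO alone, which favours a higher KAT8-cKO value. The widest difference was at chr1:85617370-85617897 inside Sp140, with 79 reads in KAT8-cKO and 43 in WT, and is one of these 7.

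The cluster with the largest excess in KAT8-cKO lay inside Tmem267 on chromosome 13, with 4 regions in chr13:119596493-119602491 and a scaled median of 0.84. The first had 237 reads in KAT8-cKO and 105 in WT, the third 190 and 61, and the last 169 and 84. The second and strongest had 408 reads in KAT8-cKO and 352 in WT, a scaled log2 ratio of −0.04. KAT8-cKO alone had chosen 1 of the 4, the third. The local background moved with these values, with a median of 61.3 reads in KAT8-cKO and 33.8 in WT, so the surroundings of the summits had more reads too, and the part of the background in this result was not tested.

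In the other direction, 14 regions in chr6:47660013-47778318 next to Pdia4, a protein disulfide isomerase gene, had a median of 103 reads in KAT8-cKO and 129 in WT. None was higher in KAT8-cKO relative to the floors, and the scaled median was −0.51. WT alone had chosen 3 of the 14, and KAT8-cKO alone 0. The background moved here too, with a median of 36.6 reads in KAT8-cKO and 47.4 in WT, and its part was not tested.

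The 43 regions at annotated starts inside protein-coding genes were weak in reads and lower in KAT8-cKO. A gene's outermost ends lie more than 1 kb away from them, at a median of 3.35 kb, so they entered as peaks away from gene ends although a RefSeq start window lay under each. Their median pileup was 23 reads in KAT8-cKO and 31 in WT, and KAT8-cKO was lower in 40 of 43. The median log2 ratio was −0.73, with quartiles of −0.86 and −0.55, and −0.48 without scaling. In 30 of 43 the KAT8-cKO pileup was at least 1.5-fold lower, and in 0 at least 1.5-fold higher. All 30 were among the 41 that WT chose (73.2%), against 65.2% of strong WT-chosen gene-end peaks and 16.4% of all shared WT peaks.

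Most were chosen by WT alone, 35 of 43, with 6 chosen by both lists and 2 by KAT8-cKO alone, and this choice favours a lower KAT8-cKO value. Among the 8 that KAT8-cKO chose, the median was −0.39. The 155 strong gene-end peaks that KAT8-cKO chose had −0.17. Its chosen regions in gene bodies had −0.01 and those outside genes −0.07. To set the internal promoters beside other regions under the same WT choice, WT-chosen regions with a WT pileup in the same range were taken. There the 41 internal promoters had a median of −0.74, the 309 other members −0.44 and the 505 strong gene-end peaks −0.73. Under the WT choice the median of the internal promoters was thus near that of gene-end peaks and below that of the other members in these libraries. Under the KAT8-cKO choice it was below both, over 8 regions. No test of these differences was run.

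Their windows were rich in CG dinucleotides, like the Stag1 window printed above. The 43 windows held a median of 27 CG dinucleotides and 66% G and C, and 36 of them (83.7%) had at least 15 CG dinucleotides, against 46.8% of the 21263 protein-coding windows. The WT summit lay a median of 133 bp from the annotated start, and within 300 bp in 39 of 43. The 7 letters CCGGAAG, a core of the ETS family motif, were found on either strand in 8 windows (18.6%), against 11.6% of protein-coding windows. No RefSeq promoter window of a protein-coding gene under a member showed a tandem repeat at 80% identity.

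The highest WT q among them was at Add3, the first sequence above, with 33 reads in KAT8-cKO and 46 in WT. Stag1 had 26 reads in KAT8-cKO and 37 in WT, and Aph1b had 28 and 35. The lowest ratio was at Nudt9, with 14 reads in KAT8-cKO and 31 in WT, a scaled log2 ratio of −1.40. Chromatin genes were among the 43: Hdac4, a histone deacetylase, had 18 reads in KAT8-cKO and 31 in WT. Kdm4c, a histone demethylase, had 25 and 30, and Morf4l2, a subunit of acetyltransferase and deacetylase complexes, had 20 and 32.

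The 3 starts with more reads in KAT8-cKO were Pfkfb2, which encodes an enzyme that sets the level of the glycolytic activator fructose 2,6-bisphosphate, Tdrd7 and Abhd18. Pfkfb2 had 35 reads in KAT8-cKO and 23 in WT, and it alone was also higher relative to the floors, at 0.35. Pfkfb2 was chosen by KAT8-cKO alone, which favours a higher KAT8-cKO value. The 95% counting interval of its unscaled log2 ratio ran from −0.19 to 1.43. Tdrd7, a germ granule protein gene, had 29 and 26 reads, and Abhd18 had 29 and 27, with scaled ratios of −0.09 and −0.15.

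**Figure D4:**
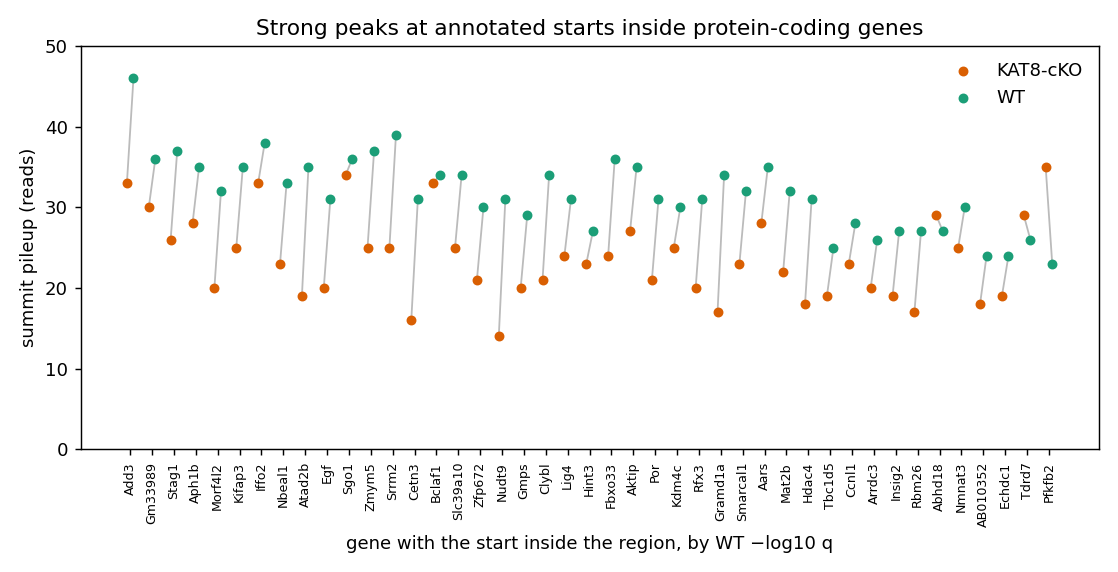
Summit pileup in reads at the 43 strong peaks on annotated starts inside protein-coding genes, KAT8-cKO on the left of each pair and WT on the right, ordered by WT −log10 q. The KAT8-cKO point is below the WT point in 40 of 43 genes, and Pfkfb2, chosen by KAT8-cKO alone, shows the reverse with 35 and 23 reads.

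**Figure D5:**
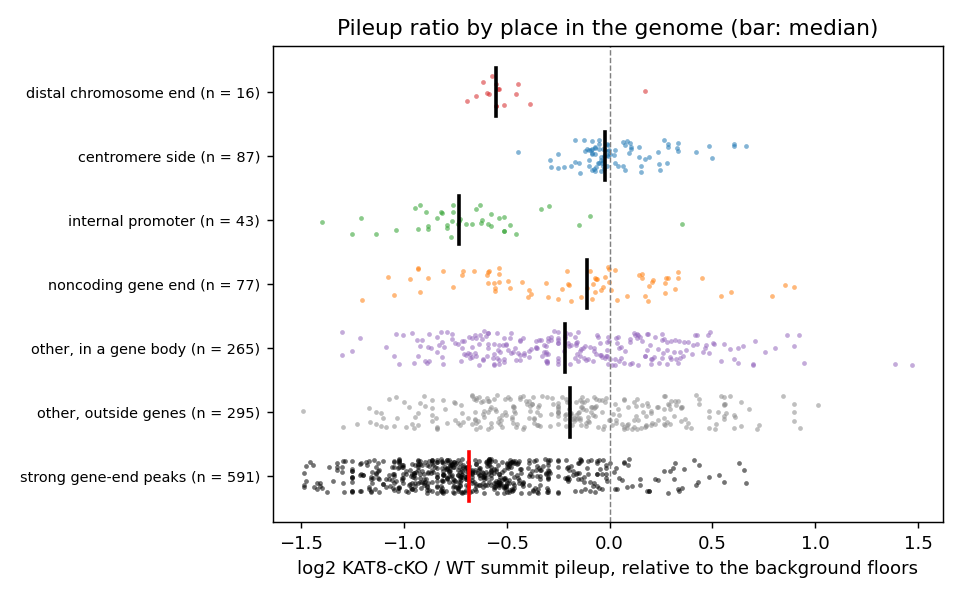
Log2 ratio of KAT8-cKO to WT summit pileup relative to the background floors, 1 point per region, by class, with the median as a bar; strong gene-end peaks are shown last. Internal promoters (−0.73) sit with the gene-end peaks (−0.68) and the distal ends (−0.55), while the centromere side (−0.02) is narrow and near 0. The classes differ in which list chose them. WT alone chose 35 of 43 internal promoters and 440 of 595 gene-end peaks, which favours a lower value. Both lists chose all 16 distal ends, and KAT8-cKO alone chose 12 and WT alone 1 of the 88 centromere-side regions. Where KAT8-cKO chose, internal promoters had −0.39 and gene-end peaks −0.17.

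The remaining 567 regions, 268 in gene bodies and 299 outside genes, lay at no annotated start, noncoding gene end or chromosome end. Their local background was under 1.5 times the floor in both lists for 318 and at least 5 times the floor in either for 59. Those in gene bodies had a median of 35 reads in KAT8-cKO and 36 in WT, and those outside genes 37.5 and 35.5. Scaled median ratios were −0.22 and −0.19, and unscaled 0.04 and 0.06, so their direction turns with the scaling.

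Few of the strong peaks lay near genes of the macrophage programme. Of 234 genes in lists of macrophage identity, the R848 response, the interferon response, immediate early genes and the TLR7 pathway, 4 had a member inside or within 50 kb, against 4.1% of all protein-coding genes. They account for 5 regions (0.632% of members). No member was near any of 31 immediate early or 26 TLR7 pathway genes. Of the other lists, 1 of 12 genes of the KAT8 complexes and 1 of 20 genes of unrelated tissues had a member, and 0 of the T cell, B cell, neutrophil, erythroid and megakaryocyte and fibroblast genes.

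Of the 5 regions, 3 flank Csf2ra, which encodes the alpha chain of the GM-CSF receptor. The nearest, chr19:61199386-61200036, had 61 reads in KAT8-cKO and 31 in WT and lay 17155 bp from the gene. The next, chr19:61264052-61264534, had 55 and 32 reads, and chr19:61266501-61267207 had 39 and 38. The first was 1.5-fold higher in KAT8-cKO relative to the floors, at 0.72, the second was at 0.53 and the third at −0.21. Csf2ra lies within 102752 bp of the distal end of chromosome 19, which is itself a member with 1728 reads in KAT8-cKO and 2072 in WT.

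The other 2 were at genes of the response lists. Near Traf1, a signalling adaptor induced by inflammatory stimuli, chr2:34904842-34905502 lay inside the neighbouring gene Phf19, a Polycomb-associated factor, with 31 reads in KAT8-cKO and 43 in WT, a scaled ratio of −0.72. Near Dtx3l and Parp9, an interferon-induced pair of ubiquitin ligase and ADP-ribosyltransferase, chr16:35981567-35981916 had 41 reads in KAT8-cKO and 38 in WT, a scaled ratio of −0.14. The region at a KAT8 complex gene was inside Msl2, the ubiquitin ligase of the MSL complex: chr9:101097524-101097896 had 66 reads in KAT8-cKO and 45 in WT, a scaled ratio of 0.30.

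Peaks near list genes were also found just under the threshold. Of the peaks away from gene ends with a −log10 q from 5 to 10, 998 in KAT8-cKO and 1235 in WT, 7 KAT8-cKO and 20 WT peaks were within 50 kb of a list gene. In KAT8-cKO these included the partner of the member near Traf1 named above, with 31 reads and a −log10 q of 8.84. That place is thus counted in both sets. Other KAT8-cKO peaks were near Il12a, a cytokine subunit gene, and Saa3, an acute-phase gene. In WT the highest was near Csf3, which encodes the cytokine G-CSF, with 24 reads and a −log10 q of 9.98, followed by Nr4a3, an immediate early receptor gene, Ctsb, a lysosomal protease gene, and Ebi3, a cytokine subunit gene.

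The regions most different in fold were weak in reads. The 5 with the lowest ratios were chosen by WT alone, which favours a lower ratio. The 5 with the highest were chosen by KAT8-cKO alone, which favours a higher one. The lowest ratios of KAT8-cKO to WT fold were at chr15:87967887-87968253, with 14 reads in KAT8-cKO and 33 in WT, and at chr10:40829673-40830280, chr5:80500757-80501099, chr16:4586471-4586866 and chr15:51036844-51037332. These other 4 had 13 to 19 reads in KAT8-cKO and 24 to 35 in WT, and all 5 were outside genes. The highest ratio was at chr11:85674193-85674474 inside Bcas3, with 33 reads in KAT8-cKO and 10 in WT. It was followed by chr2:36299711-36300151, 41118 bp from Ptgs1, the cyclooxygenase gene, with 36 and 15 reads, and chr17:62737421-62737816 inside the ephrin gene Efna5, with 39 and 17. The last 2, chrY:11857951-11858354 and chr12:119555221-119555821, each had 31 reads in KAT8-cKO and 14 in WT.

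Members without a partner were few, 5 with no KAT8-cKO peak and 3 with no WT peak. The strongest with no KAT8-cKO peak, chr10:3114859-3115077, had 278 reads in WT but a fold of 2.03 and lay among 4 other centromere-side members of chromosome 10. The next, chr10:118058288-118058665 and chr4:89264634-89265024, had 31 and 26 WT reads. Those with no WT peak were chr1:100180110-100180357 and chr16:10974974-10975296, with 32 reads each, and chr13:85390268-85390853, with 27. The one on chromosome 16 lay inside Litaf, a gene induced by bacterial lipopolysaccharide in macrophages.

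The edge of the selection was fine. The 3 KAT8-cKO members just inside all had a −log10 q of 10.03 and 26 reads, and the 3 peaks just outside had 9.96 to 9.99 and 30 to 95 reads. In WT the members just inside had 10.01 to 10.03 and 27 to 33 reads, and those just outside 9.94 to 9.98 and 24 to 47 reads. A peak near the edge could thus have more reads than a member where its local background was higher.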

How the data were processed

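Per the submitters' processing notes, the build was mm10 and the tools Bowtie 0.12.8, MACS2 2.2.7.1 and DiffBind. Peak calling settings, duplicate handling and any control library: not given in the sources used here. The authors deposited 1 peak list per library, with a score per peak, a fold over background (a ratio), the −log10 of p and q, and a summit offset. The deposited score was 10 times −log10 p without decimals for 99.99% of peaks of each list.

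Members and gene lists were chosen with earlier results of these data known. Gene ends came from RefSeq (GRCm38.p6), with 21779 protein-coding genes kept. Entries with coordinates under 3 Mb were left out, 340 of all gene types, of which 108 were protein-coding. Overlap meant at least 1 bp. Summit pileup and background were solved from fold and p under a Poisson model, assuming that fold is (pileup + 1)/(background + 1). Tested on simulated data, 2000 of 2000 pileups were recovered, and 0 of 1326 intervals differed from a direct search in overlap. Regions named are the 10 with the highest −log10 q, extremes of the fold ratio, the strongest without a partner, those near list genes and those beside the threshold; others were chosen after their values were seen, as were the classes, clusters and scaling. Python 3.11.15, pandas 2.3.3, NumPy 2.4.6 and SciPy 1.17.1 were used. With 1 library per genotype no test was run, and intervals cover counting error only. Thresholds, distances and overlaps were varied.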

Additional observations from a re-analysis of the deposited data

How the results depend on the processing

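Of 62 values recomputed under another choice, 34 kept their direction and stayed within the spread used. A −log10 q of at least 20 left 344 regions, 32.6% in gene bodies, 71.8% strong in both lists, 29.7% with a neighbour within 10 kb, a median width of 501 bp, a median log2 fold ratio of −0.021 and 2 regions near list genes. A −log10 q of at least 50 left 178 regions, 30.9%, 80.3%, 41 on the centromere side, 502.5 bp, −0.034 and 0. With no gene end within 5 kb, 39.4% were in gene bodies. The ratio of −log10 q in place of fold had a median log2 of −0.0023. A fold under 5 held 24.3% of members, a window of 100 kb gave 31.6% with a neighbour, and 20 kb left 2 regions near list genes. The median log2 fold ratio was −0.17 in WT-chosen regions and turned to 0.022 in KAT8-cKO-chosen ones. Without scaling, and equally with scaling by the median of all shared peaks, the log2 pileup ratio was −0.30 at distal ends, −0.48 at internal promoters and turned to 0.23 on the centromere side; internal promoters chosen by KAT8-cKO had −0.39. The cause of these moves was not tested. No paired analysis was possible because each genotype had 1 library. The depth of each library is known only through the recovered pileups.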
